A study of Mus musculus with 55 samples.

Results

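Gonadal white fat (goWAT) was compared with subcutaneous white fat (scWAT) in placebo-treated male mice kept at 22 °C. The comparison used the 4 goWAT and the 4 scWAT libraries of that condition, 8 of the 55 libraries of the series, chosen by their labels and joined by Ensembl gene identifier. All 8 came from C57BL/6NRj mice that were 10 weeks old when they received placebo in the drinking water for 4 weeks. The other conditions of the series were corticosterone in the drinking water and housing at 13 °C, with 4 or 5 libraries for each of these 2 depots. No mouse carried a transgene or a deletion according to the labels. Frozen fat was sectioned, chosen areas were cut out by laser, and about 2 ng of total RNA per sample was made into a library with the SMART-Seq2 protocol, which copies full-length polyadenylated RNA and keeps no record of its strand. A library therefore describes a small captured area of a depot, and the labels do not say which structures were cut out. Which libraries share an animal is not in the labels, so the p-values measure the spread between libraries, which may be partly technical. If libraries of the same depot share an animal, the p-values are too small. The labels name no batch, and the 2 depots lie in separate count tables, so a difference in handling and a difference between depots cannot be told apart.

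White fat depots store triglyceride and release fatty acids and hormones such as leptin and adiponectin, yet they arise from different embryonic tissue. Gonadal fat lies in the abdominal cavity, is covered by a mesothelium, a thin epithelial sheet marked by Wt1, mesothelin and uroplakins, and shares the ancestry of that sheet. Subcutaneous fat lies under the skin, has a stronger tendency to form beige adipocytes, which burn fuel through uncoupling protein 1 (Ucp1), and keeps the positional code of homeobox genes of the body region where it formed. Major urinary proteins are small lipocalins that carry pheromones in the urine of male mice and are made mainly in the liver under growth hormone and androgens.

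The goWAT libraries held 31977093 to 47452558 counts and the scWAT libraries 17780697 to 32693875. On log2 CPM (counts scaled to a common library size), pairs of libraries correlated at r = 0.952 to 0.967 within goWAT, 0.917 to 0.949 within scWAT and 0.870 to 0.937 between the depots. Adipocyte genes dominated both depots, with Adipoq, which encodes adiponectin, between 2893 and 5210 CPM in the 8 libraries. Mitochondrially encoded genes took 3.00% ± 1.21 (SD, n = 4) of the counts in goWAT and 7.25% ± 1.6 (SD, n = 4) in scWAT, with no overlap (two-sided exact permutation test, p = 0.0286, the smallest that 70 splits allow). A single library stood apart by another tissue: in scWAT replicate 1 the mean of 20 skeletal muscle genes was 3.97 on the log2 CPM scale, against -1.48 to -1.06 in the other 7.

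Of 17470 genes tested, 2475 (14.2%) passed an adjusted p of 0.05, with 1092 (6.25%) higher in goWAT and 1383 (7.92%) higher in scWAT. At least 2-fold differences made up 767 of the goWAT genes and 881 of the scWAT genes. In 3737 genes (21.4%) the lowest library of one depot lay above the highest of the other. Fold changes are given as log2 of goWAT over scWAT with the standard error (SE) of edgeR's quasi-likelihood test, and adjusted p-values follow Benjamini and Hochberg over all genes tested, so that positive values are higher in goWAT. The median over all tested genes was 0.01. The count of called genes depended on single libraries: it was 1045 without goWAT replicate 4, 1405 without scWAT replicate 2, 1474 without goWAT replicate 3 and 1646 without goWAT replicate 2. No gene of the 2475 changed sign when any of the 8 libraries was left out. In bulk RNA of this kind, fewer cells of a type and less RNA per cell cannot be told apart, and this holds for every group of marker genes below. The shares of 6.25% higher in goWAT and 7.92% higher in scWAT are to be set beside every list count below.

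Major urinary protein genes made up most of the largest differences toward scWAT. Of 29 Mup genes in the tables, 22 passed the filter on low counts. Among these, 20 were higher in scWAT, against 7.92% of all genes tested, and 0 in goWAT, with log2 fold changes of -9.26 to -6.16. In each of the 20 the lowest scWAT library lay above the highest goWAT library. Such a lack of overlap, in either direction, held for 21.4% of all genes tested. The 20 had few counts in goWAT and passed the filter mainly through scWAT, so their direction and lack of overlap partly follow from it. The family lies outside the rule for named genes and was chosen after its values were seen. Of the 20 genes, 17 are annotated as protein coding, and 19 lie on chromosome 4. Mup10 held 0.351, 0.350, 0.232 and 0.230 CPM in the 4 goWAT libraries and 41.5, 77.5, 135 and 136 CPM in the 4 scWAT libraries (log2 fold change -8.38 ± 0.45, adjusted p = 1.55e-07). Mup22 held 0.959, 0.321, 0.129 and 0.502 CPM in goWAT and 45.1, 113, 208 and 205 CPM in scWAT (log2 fold change -8.19 ± 0.66, adjusted p = 2.7e-05). In both genes scWAT replicates 3 and 4 were highest and replicate 1 was lowest of the scWAT libraries. Summed over the 20 genes, goWAT held 2.57, 2.48, 1.11 and 1.88 CPM and scWAT 195.0, 373, 599.8 and 623 CPM, a 223-fold higher mean in scWAT. With each library left out in turn, the log2 ratio of the sums ran from -8.05 to -7.60. Mup2 held 0.164, 0.175, 0.0773 and 0.0628 CPM in goWAT and 12.8, 39.2, 67.7 and 56.7 CPM in scWAT (log2 fold change -8.51 ± 0.58, adjusted p = 1.2e-06).

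The remaining tested members, Mup3 and Mup20, did not pass the test. Mup3 held 11.3, 7.12, 2.53 and 2.28 CPM in goWAT and 1.58, 13.0, 16.6 and 14.8 CPM in scWAT (log2 fold change -0.99 ± 0.63, adjusted p = 0.31). Mup20, which encodes the male pheromone darcin, held 1.08, 2.04, 0.0258 and 0.837 and 0.0528, 0.788, 0.399 and 0.569 CPM (log2 fold change 1.13 ± 0.89, adjusted p = 0.412). In both genes the depots overlapped. The members are near-identical copies: over the 20 called genes a median of 81.5% of the 50-base windows in the GENCODE transcripts of a gene occurred in another Mup gene, with a range of 4% to 100%, against 13.3% for Mup3 and 50.1% for Mup20. How a read that fits several copies was counted is not given in the sources used here, so the split among the 20 genes is uncertain, and their sum is the firmer quantity.

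Developmental transcription factors differed in both directions. Of 25 tested, 5 were higher in goWAT and 9 in scWAT. Wt1, a zinc finger factor of mesothelium and visceral fat progenitors on chromosome 2 (105126529 to 105173616), held 7.27, 4.40, 12.7 and 12.2 CPM in goWAT and 0.0528, 0.0606, 0.0614 and 0.122 CPM in scWAT (log2 fold change 6.85 ± 0.55, adjusted p = 4.49e-06). The 4 scWAT libraries together held 7 counts of it. Tcf21, a bHLH factor of visceral fat progenitors, held 5.10, 4.11, 1.88 and 3.45 CPM in goWAT and 0, 0.242, 0 and 0.0407 CPM in scWAT (log2 fold change 5.87 ± 0.84, adjusted p = 0.00091). Neither factor overlapped between the depots. Tbx15, a T-box factor of dermal and subcutaneous lineages on chromosome 3 (99240381 to 99354259), ran the other way, with 0.0935, 0.0583, 0.103 and 0.0837 CPM in goWAT and 16.1, 9.09, 9.12 and 5.13 CPM in scWAT (log2 fold change -6.79 ± 0.50, adjusted p = 1.76e-06). Shox2, a homeobox factor of limb and fat progenitors, held 1.99, 2.27, 1.75 and 0.963 CPM in goWAT and 45.2, 40.1, 36.1 and 38.0 CPM in scWAT (log2 fold change -4.52 ± 0.29, adjusted p = 9.2e-07). Every scWAT library held more than 5 CPM of Tbx15 and every goWAT library less than 1 CPM.

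Other factors higher in scWAT were Tbx5 (-5.89 ± 0.75), Lhx8 (-5.83 ± 0.79), Irx2 (-4.67 ± 0.62) and Twist1 (-1.86 ± 0.26). Lhx8 is also used as a marker of brown fat. The orphan nuclear receptor Nr2f1 was higher in goWAT (log2 fold change 1.59 ± 0.37, adjusted p = 0.0136). Alx1, a homeobox gene that was not on the list, held 1.43, 3.35, 0.515 and 1.28 CPM in goWAT and was at 0 in all 4 scWAT libraries, at least 48.5-fold higher against a floor of 3 counts over the group. Alx1 was chosen after its values were seen.

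Hox genes, whose order along each chromosome cluster follows the body axis, differed at both ends of the clusters. Of 25 tested Hox genes, 4 were higher in goWAT and 4 in scWAT, and 17 did not pass. Hoxc10 held 0.0701, 0.117, 1.26 and 0.0837 CPM in goWAT and 34.3, 27.4, 18.5 and 18.3 CPM in scWAT (log2 fold change -6.01 ± 0.79, adjusted p = 0.00102). Hoxa10 held 0.0234, 0.146, 0.438 and 0.126 CPM in goWAT and 11.1, 12.3, 15.3 and 24.3 CPM in scWAT (log2 fold change -6.42 ± 0.58, adjusted p = 1.51e-05), and its neighbour Hoxa9 differed similarly (log2 fold change -5.62 ± 0.41, adjusted p = 1.76e-06). The highest goWAT library for Hoxc10 was replicate 3, far below the lowest scWAT library. Hoxc4 held 13.4, 11.6, 18.2 and 20.2 CPM in goWAT and 1.90, 2.18, 3.53 and 2.85 CPM in scWAT (log2 fold change 2.59 ± 0.31, adjusted p = 0.00023). Hoxc5 (log2 fold change 1.65 ± 0.27, adjusted p = 0.00208) and Hoxa5 (log2 fold change 2.02 ± 0.40, adjusted p = 0.00525) were higher in goWAT as well.

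Several Hox genes between these ends did not pass the test. Hoxc8 held 73.3, 75.4, 60.7 and 61.7 CPM in goWAT and 94.0, 74.7, 45 and 56.2 CPM in scWAT, with overlapping depots (log2 fold change 0.01 ± 0.23, adjusted p = 0.988). Hoxa7 (0.43 ± 0.24), Hoxc6 (0.85 ± 0.33) and Hoxc9 (-0.42 ± 0.30) did not pass either. Split by number after the values were seen, Hox genes 1 to 6 had 4 of 14 members higher in goWAT and 1 higher in scWAT with a median log2 fold change of 1.03, and Hox genes 7 to 11 had 0 of 11 higher in goWAT and 3 higher in scWAT with a median of -0.65. The annotated Hoxc5 gene overlaps Hoxc6, Hoxc8, Hoxc9 and Hoxc10, and Hoxa5 overlaps Hoxa3, so unstranded reads cannot be assigned with certainty there. The calls of Hoxb4 (-1.45) and Hoxb5 (1.38) were lost without single libraries. The adjusted p of Hoxb4 was 0.0592 to 0.134 without goWAT replicate 1, 2 or 4 or scWAT replicate 1 or 2, and that of Hoxb5 0.0512 to 0.0732 without goWAT replicate 2, 3 or 4 or scWAT replicate 2 or 3.

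**Figure D1:**
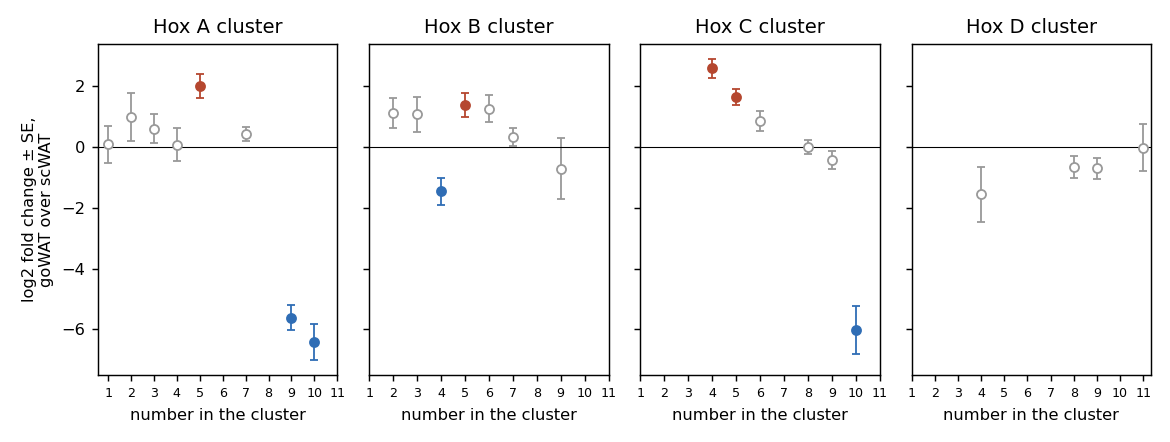
Log2 fold change ± SE of goWAT over scWAT (y axis) for the 25 tested Hox genes by their number in the A, B, C and D clusters (x axis), filled red where called higher in goWAT, filled blue where called higher in scWAT and open where not called. Hoxa9, Hoxa10 and Hoxc10 lie below -5 and the other 22 genes between -2 and 3.

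Mesothelial genes were higher in goWAT by wide margins. Of 19 in the tables, 17 passed the filter on low counts. Among these, 12 were higher in goWAT, against 6.25% of all genes tested, and 0 in scWAT, with a median log2 fold change of 4.05. Upk3b, Upk1b, Msln and Krt18 held 1, 0, 11 and 5 counts in scWAT in all and passed that filter only through goWAT. The direction of the count and of the median therefore partly follows from the filter. Under a filter that kept genes averaging 1 log2 CPM or more, 0 were called. That filter removed Upk3b, Upk1b, Msln, Krt18 and Krt19 before the test. Upk3b, a uroplakin of the mesothelial surface, held 34.8, 7.12, 21.4 and 17.5 CPM in goWAT, while scWAT held 1 count in all, a ratio of 1922.7 with a 95% counting interval of 344.8 to 75962.9. Upk1b held 7.83, 1.05, 5.39 and 4.81 CPM in goWAT and no count in scWAT, at least 152.8-fold higher against a floor of 3 counts over the group. Msln, which encodes mesothelin, held 12.1, 1.78, 12.8 and 4.29 CPM in goWAT and 0, 0, 0.307 and 0.0407 CPM in scWAT (log2 fold change 6.11 ± 0.88, adjusted p = 0.00102). Among the goWAT libraries replicate 2 was lowest for all 3 of these genes. The keratins Krt18 (log2 fold change 5.09 ± 0.69, adjusted p = 0.00058) and Krt19 (log2 fold change 3.20 ± 0.59, adjusted p = 0.00379) were higher in goWAT too. The intervals cover counting error only.

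Genes of the complement cascade and the acute phase followed in part. Of 23 tested, 7 were higher in goWAT and 2 in scWAT, against 6.25% and 7.92% of all genes tested. The median of the list was 0.55, and the 2 in scWAT, Orm1 and Orm2, became 1 without goWAT replicate 2, 3 or 4 or scWAT replicate 2. C6 and C7, components of the membrane attack complex, were among the 7. C6 held 26.9, 52.8, 83.6 and 43.0 CPM in goWAT and 2.64, 1.15, 4.70 and 4.31 CPM in scWAT (log2 fold change 3.98 ± 0.43, adjusted p = 9.48e-05), and C7 held 13.9, 30.4, 31.0 and 19.9 CPM in goWAT and 1.06, 1.21, 0.645 and 1.42 CPM in scWAT (log2 fold change 4.47 ± 0.37, adjusted p = 5.58e-06). Lbp, which binds bacterial lipopolysaccharide, held 64.1, 50.3, 41.9 and 31.4 CPM in goWAT and 7.45, 4.67, 10.6 and 7.12 CPM in scWAT (log2 fold change 2.65 ± 0.29, adjusted p = 9.48e-05). None of these 3 overlapped between depots. C3, the central complement component, and Cfd, the adipocyte protease adipsin, did not pass the test (log2 fold changes 0.17 and -0.24). The acute-phase gene Saa3 ran from 55 to 967 CPM in goWAT, with replicate 3 highest, and from 1.53 to 19.3 CPM in scWAT (log2 fold change 5.2 ± 1.31, adjusted p = 0.0428). Its adjusted p was 0.108 without scWAT replicate 2, 0.0922 without scWAT replicate 3, 0.0715 without goWAT replicate 4 and 0.0503 without goWAT replicate 1, and its log2 fold change was 3.43 without goWAT replicate 3. Mesothelial genes were also higher in goWAT, and their part in this list was not tested.

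Enzymes that make retinoic acid and several secreted modulators of Wnt and BMP signals were higher in goWAT. Of 17 retinoid genes, 3 were higher in goWAT and 1 in scWAT, against 6.25% and 7.92% of all genes tested, and the 3 were the retinaldehyde dehydrogenases. The scWAT gene was Rdh11 (-1.07), lost without goWAT replicate 2 or 4 or scWAT replicate 1 or 2. Aldh1a3 held 10.6, 11, 31.3 and 15.1 CPM in goWAT and 0.528, 0.848, 0.368 and 1.42 CPM in scWAT (log2 fold change 4.43 ± 0.49, adjusted p = 0.00011). Aldh1a1, the most abundant of them, held 181, 161, 163 and 116 CPM in goWAT and 52.9, 21.6, 77.7 and 38.3 CPM in scWAT (log2 fold change 1.70 ± 0.31, adjusted p = 0.00377), and Aldh1a2 differed by 4.82 ± 0.93. Of 30 Wnt and BMP regulators, 8 were higher in goWAT and 0 in scWAT, with a median of 0.50 and 5 calls without goWAT replicate 4. Sfrp1, a secreted Wnt antagonist, held 13.7, 15.7, 15.3 and 11.1 CPM in goWAT and 3.27, 1.58, 0.798 and 1.83 CPM in scWAT (log2 fold change 2.91 ± 0.39, adjusted p = 0.000551). The Wnt agonist Rspo1 (log2 fold change 2.48 ± 0.50, adjusted p = 0.00584) and the BMP antagonist Chrdl1 (log2 fold change 1.44 ± 0.30, adjusted p = 0.00707) were also higher in goWAT, while Sfrp5, a Wnt antagonist of adipocytes, did not pass the test (0.57).

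Imprinted growth genes split. Of 17 tested, 2 were higher in goWAT and 4 in scWAT, against 6.25% and 7.92% of all genes tested. Mest, a marker of fat cell enlargement, held 94.3, 34.6, 74.6 and 28.9 CPM in goWAT and 1.11, 2.30, 5.43 and 4.56 CPM in scWAT (log2 fold change 4.09 ± 0.51, adjusted p = 0.000578). Plagl1, a zinc finger factor of the same imprinted network, held 56.6, 36.9, 35.2 and 24.2 CPM in goWAT and 8.18, 4.42, 13.3 and 8.22 CPM in scWAT (log2 fold change 2.15 ± 0.33, adjusted p = 0.00131). The depots did not overlap for either gene. The 4 genes higher in scWAT were Zim1, Asb4, Peg3 and Nap1l5 (log2 fold changes -3.72, -2.0, -0.98 and -0.86), and this count fell to 0 without goWAT replicate 2, 3 or 4 or scWAT replicate 1 and to 2 without goWAT replicate 1. The annotated Mest gene overlaps Copg2, so unstranded reads cannot be assigned with certainty there.

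**Figure D2:**
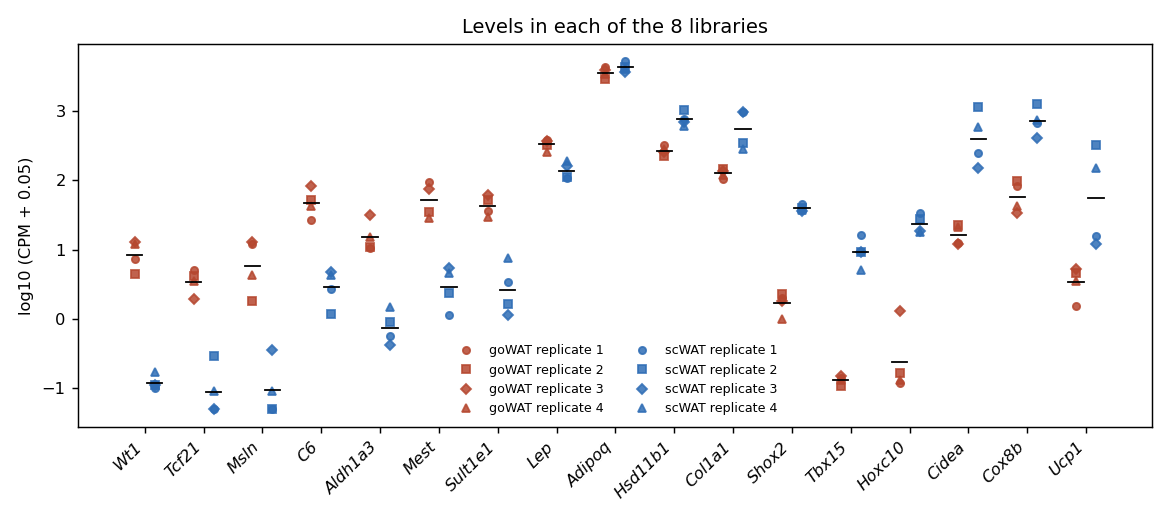
CPM of 17 genes in each library, drawn as log10 of CPM plus 0.05 (y axis), with goWAT in red, scWAT in blue, a marker shape for each replicate number and a bar at the group mean of the plotted values. Wt1, Tcf21, C6 and Mest separate the depots upward in goWAT, Shox2, Tbx15, Hoxc10, Cidea and Cox8b separate them upward in scWAT, and Adipoq overlaps.

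Most white adipocyte genes did not pass the test, and a few were higher in goWAT. Of 23 white adipocyte genes, 5 were higher in goWAT and 1 in scWAT, against 6.25% and 7.92% of all genes tested. The median of the list was 0.15, and the goWAT count was 3 without goWAT replicate 3 or 4 or without scWAT replicate 2 or 4. Adipoq held 4284, 2893, 3953 and 3412 CPM in goWAT and 5209.6, 4374, 3648 and 4077 CPM in scWAT (log2 fold change -0.25 ± 0.22, adjusted p = 0.467). Pparg, the master regulator of fat cell formation, did not pass the test (log2 fold change -0.08 ± 0.20, adjusted p = 0.809), nor did the fat droplet gene Cidec (0.50) or resistin, Retn (0.02). Lep, which encodes leptin, held 383, 328, 374 and 256 CPM in goWAT and 108, 110.4, 160.1 and 189 CPM in scWAT (log2 fold change 1.24 ± 0.23, adjusted p = 0.00414). Adrb3, the beta-3 adrenergic receptor that starts lipolysis, held 999.6, 1135, 1019.6 and 1884 CPM in goWAT and 300.2, 455, 321 and 401 CPM in scWAT (log2 fold change 1.77 ± 0.25, adjusted p = 0.00091), with goWAT replicate 4 highest. The lipid droplet coat gene Plin1 held 793, 739, 952 and 1278 CPM in goWAT and 586, 459, 362 and 432 CPM in scWAT (log2 fold change 1.03 ± 0.23, adjusted p = 0.0116). Cebpa, an adipocyte transcription factor, was the 1 member higher in scWAT, with 535, 434, 299 and 386 CPM in goWAT and 952, 823, 724 and 827 CPM in scWAT (log2 fold change -1.01 ± 0.22, adjusted p = 0.00898).

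Several abundant products were higher in goWAT. Trf, which encodes the iron carrier transferrin, held 6069.8, 8974, 11541 and 10506 CPM in goWAT and 3522, 2661, 4211 and 2669 CPM in scWAT (log2 fold change 1.51 ± 0.26, adjusted p = 0.00273). Cyp2e1, a cytochrome P450 that oxidises ethanol and ketones, held 7671, 10958, 15983 and 13928 CPM in goWAT and 4599, 4401, 5158 and 4605 CPM in scWAT (log2 fold change 1.37 ± 0.25, adjusted p = 0.00381). The growth hormone receptor gene Ghr held 1400.2, 1599, 1789 and 2569.5 CPM in goWAT and 1012, 841, 1258 and 918 CPM in scWAT (log2 fold change 0.87 ± 0.24, adjusted p = 0.0268). The adjusted p of Ghr was 0.0568 without goWAT replicate 3, 0.0835 without goWAT replicate 4, 0.0941 without scWAT replicate 2 and 0.0822 without scWAT replicate 4. Trf, Cyp2e1 and Ghr were chosen among the most abundant called genes after their values were seen, and none of them overlapped between depots. Penk, the precursor of enkephalin, held 55.5, 109.7, 111 and 99.9 CPM in goWAT and 12, 4.97, 3.72 and 4.19 CPM in scWAT (log2 fold change 3.93 ± 0.38, adjusted p = 3.25e-05). Of 26 adipokines and secreted factors, 5 were higher in goWAT and 2 in scWAT, against 6.25% and 7.92% of all genes tested. The counts were 3 in goWAT without goWAT replicate 4 or scWAT replicate 2, and 0 in scWAT without goWAT replicate 2, 3 or 4 or scWAT replicate 2. Agt, the angiotensin precursor, held 263, 491, 381 and 770.0 CPM in goWAT and 139, 13.2, 81.6 and 11.2 CPM in scWAT (log2 fold change 2.96 ± 0.82, adjusted p = 0.0459), and its call was lost without any one of goWAT replicates 2, 3 and 4 and scWAT replicate 3. Over all its alternatives the adjusted p of Agt reached at most 0.126.

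Brown and beige adipocyte genes were higher in scWAT. Of 24 tested, 19 were higher in scWAT and 0 in goWAT, with a median log2 fold change of -3.44, and the count was 12 without goWAT replicate 4. Cidea, a lipid droplet protein of brown fat, held 12.5, 23.0, 12.2 and 21.5 CPM in goWAT and 252, 1145, 149.9 and 584 CPM in scWAT (log2 fold change -4.95 ± 0.61, adjusted p = 0.000923). Cox8b, a subunit of cytochrome oxidase found in brown fat, held 83.2, 98.6, 33.5 and 42.4 CPM in goWAT and 678, 1284, 404 and 753 CPM in scWAT (log2 fold change -3.60 ± 0.41, adjusted p = 0.000158). Cox7a1, a further such subunit, held 7.64, 10.4, 5.62 and 4.35 CPM in goWAT and 35.6, 196, 28.0 and 99.0 CPM in scWAT (log2 fold change -3.68 ± 0.60, adjusted p = 0.00402). In all 3 genes scWAT replicates 2 and 4 were the highest, and the depots did not overlap.

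Ucp1 itself held 1.52, 4.52, 5.21 and 3.54 CPM in goWAT and 15.8, 323, 11.9 and 153 CPM in scWAT (log2 fold change -5.09 ± 1.25, adjusted p = 0.0389). Its scWAT values fell into a high pair, replicates 2 and 4, and a low pair, replicates 1 and 3, the latter 11.9 and 15.8 CPM. The adjusted p of Ucp1 rose to 0.109 without goWAT replicate 4, 0.0956 without goWAT replicate 2, 0.0876 without goWAT replicate 3, 0.0776 without goWAT replicate 1 and 0.0631 without scWAT replicate 4. Elovl3, which lengthens fatty acids in brown fat, differed by -4.41 ± 0.76, the potassium channel gene Kcnk3 by -1.79 ± 0.24 and Pank1, which starts coenzyme A synthesis, by -2.13 ± 0.37. Ppargc1a, Ebf2 and Ppara did not pass the test (log2 fold changes -1.54, 0.21 and -0.38).

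Respiratory chain genes followed the same direction with smaller differences. Of 30 nuclear subunits, 15 were higher in scWAT and 0 in goWAT, with a median of -0.68, and 9 were called without goWAT replicate 4. Ndufa1, of complex I, held 201, 261, 157 and 166 CPM in goWAT and 847, 921, 374 and 571 CPM in scWAT (log2 fold change -1.79 ± 0.28, adjusted p = 0.00165). Cycs, which encodes cytochrome c, held 29.8, 30.0, 26.6 and 22.1 CPM in goWAT and 101, 123, 56.6 and 91.0 CPM in scWAT (log2 fold change -1.78 ± 0.24, adjusted p = 0.000555), and Cox7c, of complex IV, differed by -1.67 ± 0.26. Sdha, Uqcrc1 and Atp5b were among the 15 that did not pass the test (0.01, 0.12 and -0.09). Of the 13 mitochondrially encoded transcripts, 11 were higher in scWAT, with a median of -1.38, and 6 were called without goWAT replicate 4. Among them mt-Nd2 held 2678, 954, 1669 and 1151 CPM in goWAT and 10712, 8754, 4179 and 7194 CPM in scWAT (log2 fold change -2.26 ± 0.36, adjusted p = 0.00161), and mt-Co3 differed by -2.40 ± 0.36. Mitochondrial genes have nuclear copies, so single transcripts are uncertain. Removing the mitochondrially encoded genes from the scaling left 2436 called genes in the comparison.

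Promoters with a cyclic AMP response element are shown because this element is the textbook link from adrenergic signals to thermogenic genes. The 250 bases before the RefSeq gene start are printed 5′ to 3′ (GRCm38.p6), with the element TGACGTCA, which reads the same on both strands, in capitals. Dio2, whose enzyme activates thyroid hormone in brown fat, lies on the minus strand at chr12:90739039-90739288, and Cycs on the minus strand at chr6:50566570-50566819.
Dio2: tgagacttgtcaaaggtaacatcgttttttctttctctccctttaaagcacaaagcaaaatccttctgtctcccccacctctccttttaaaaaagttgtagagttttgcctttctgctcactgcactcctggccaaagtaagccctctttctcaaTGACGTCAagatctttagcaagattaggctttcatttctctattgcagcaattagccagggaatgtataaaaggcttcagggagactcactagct
Cycs: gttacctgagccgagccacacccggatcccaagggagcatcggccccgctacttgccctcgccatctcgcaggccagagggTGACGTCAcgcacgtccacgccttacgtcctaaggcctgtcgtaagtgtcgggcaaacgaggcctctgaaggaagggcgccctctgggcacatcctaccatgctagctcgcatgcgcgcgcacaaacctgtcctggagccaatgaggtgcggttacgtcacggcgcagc
The element begins 95 bases before the start of Dio2 and 169 bases before that of Cycs. In windows that also hold the 50 bases after the start, it occurred in 2 of 16 called brown and beige genes with a promoter in the table (12.5%), 1 of 12 called respiratory genes (8.33%) and 382 of 11203 tested genes (3.41%). The letters GCATGCG, the core of the NRF1 motif, on either strand, occurred in 0 of the 16, in 3 of the 12 (25%) and in 768 of the 11203 (6.86%). Dio2 held 0.444, 0.467, 0.309 and 0.251 CPM in goWAT and 1.37, 65.9, 0.860 and 20.1 CPM in scWAT (log2 fold change -5.90 ± 1.49, adjusted p = 0.0386), again with scWAT replicates 2 and 4 highest. Its call was lost without any one of the 4 goWAT libraries or without scWAT replicate 4, with adjusted p between 0.0642 and 0.125.

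**Figure D3:**
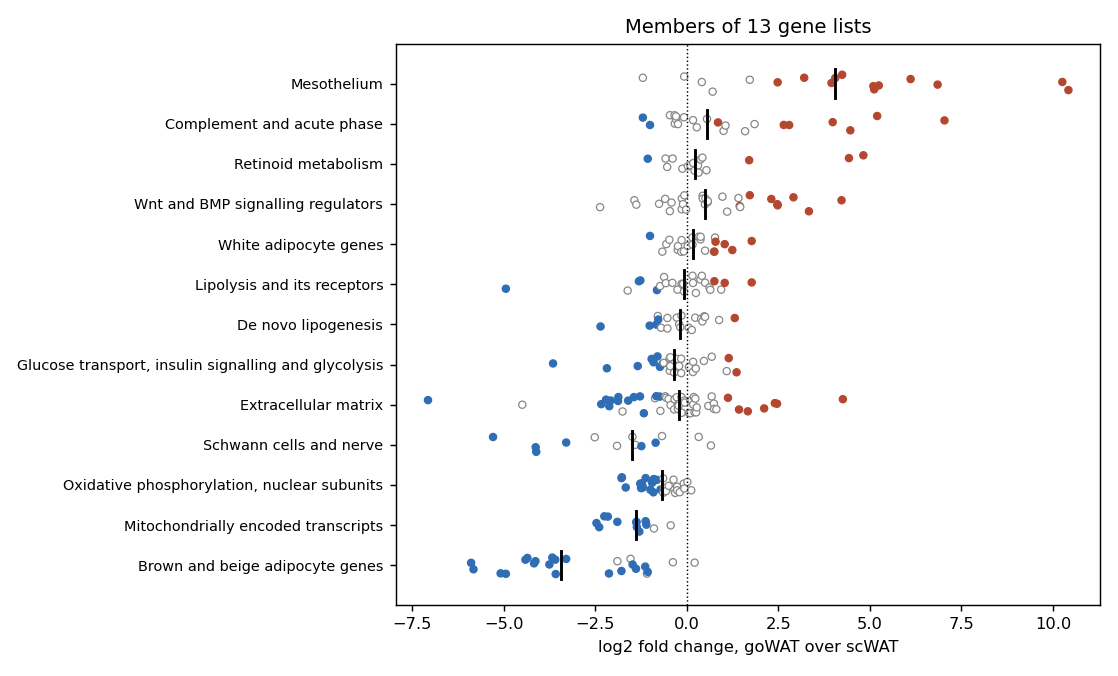
Log2 fold change of goWAT over scWAT (x axis) for the tested members of 13 gene lists (rows), filled red or blue where called higher in goWAT or scWAT and open where not called, with a black bar at the median of each list and a dotted line at the median of all tested genes. The mesothelium list lies to the right with a median of 4.05 and the brown and beige list to the left with a median of -3.44, while the white adipocyte and lipolysis lists straddle 0.

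In lipid and glucose metabolism the calls were fewer and most of them pointed to scWAT. Of 21 genes of de novo lipogenesis, 1 was higher in goWAT and 4 in scWAT, against 6.25% and 7.92% of all genes tested. The median of the list was -0.18. The scWAT count was 1 without goWAT replicate 2 or 4 and 2 without scWAT replicate 2 or 4. Elovl6, a fatty acid elongase, held 402, 120.2, 242 and 70.2 CPM in goWAT and 629.5, 1515, 916 and 1222 CPM in scWAT (log2 fold change -2.36 ± 0.47, adjusted p = 0.00715). The fatty acid desaturase gene Fads1 was the exception, with 119.6, 122, 162 and 176 CPM in goWAT and 65.4, 51.0, 77.5 and 39.9 CPM in scWAT (log2 fold change 1.31 ± 0.23, adjusted p = 0.00316). Fasn, the fatty acid synthase gene, held 11307, 8143, 9587 and 8558 CPM in goWAT and 11999.5, 13200.0, 12102 and 17082 CPM in scWAT and did not pass the test (log2 fold change -0.53 ± 0.23, adjusted p = 0.13).

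Of 27 genes of glucose transport, insulin signalling and glycolysis, 2 were higher in goWAT and 8 in scWAT, and the counts were 1 and 1 to 3 without goWAT replicate 2, 3 or 4 or scWAT replicate 2 or 4. Slc2a5, the fructose transporter gene, held 12.6, 3.65, 2.29 and 2.85 CPM in goWAT and 43.5, 79.6, 64.8 and 82.7 CPM in scWAT (log2 fold change -3.66 ± 0.50, adjusted p = 0.00103). Irs3, an insulin receptor substrate of rodent adipocytes, held 93.8, 75.9, 79.3 and 133 CPM in goWAT and 43.3, 32.4, 39.5 and 33.9 CPM in scWAT (log2 fold change 1.36 ± 0.22, adjusted p = 0.00176). Over all genes tested, 6.25% were higher in goWAT and 7.92% in scWAT. Of 25 lipolysis genes, 3 were higher in goWAT and 4 in scWAT. Of 22 fatty acid oxidation genes, 1 was higher in goWAT and 3 in scWAT, the latter 7 without scWAT replicate 1 and 5 without scWAT replicate 3. Among those higher in scWAT were the droplet coat gene Plin2 (log2 fold change -1.31 ± 0.25, adjusted p = 0.00489), the protein kinase A subunit gene Prkar2b (log2 fold change -1.27 ± 0.22, adjusted p = 0.00267), the beta-oxidation gene Hadhb (log2 fold change -1.52 ± 0.26, adjusted p = 0.0024) and the electron carrier gene Etfb (log2 fold change -1.47 ± 0.23, adjusted p = 0.00151). Of 22 genes of triglyceride uptake and synthesis, 1 was higher in each depot, and Fabp5, a fatty acid carrier, held 107, 85.4, 71.0 and 48.2 CPM in goWAT and 299.6, 264, 251 and 316 CPM in scWAT (log2 fold change -1.86 ± 0.24, adjusted p = 0.000434).

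The extracellular matrix differed in both directions. Of 53 matrix genes, 7 were higher in goWAT and 13 in scWAT, and the latter count was 8 without goWAT replicate 2, 3 or 4 or without scWAT replicate 1 or 3. Mmp3, which encodes stromelysin, a matrix protease on chromosome 9 (7445822 to 7455975), held 0.491, 0.467, 0.438 and 1.36 CPM in goWAT and 116, 56.8, 144 and 62.9 CPM in scWAT (log2 fold change -7.07 ± 0.47, adjusted p = 1.2e-06). Col1a1, a chain of collagen I, held 106, 145, 138 and 118 CPM in goWAT and 962, 345, 983 and 279.8 CPM in scWAT (log2 fold change -2.34 ± 0.37, adjusted p = 0.00164), with scWAT replicates 1 and 3 highest. Col1a2 (-2.08 ± 0.34), Col6a3 (-1.88 ± 0.29) and the matricellular gene Postn (-2.21 ± 0.31) were higher in scWAT as well. The network-forming collagen IV genes Col4a1 and Col4a2 did not pass the test (-0.23 and 0.19).

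Other matrix genes were higher in goWAT. Col6a5, like Col6a3 a collagen VI chain, held 14.6, 24.4, 60.6 and 28.5 CPM in goWAT and 4.07, 0.364, 1.72 and 0.529 CPM in scWAT (log2 fold change 4.26 ± 0.69, adjusted p = 0.00315). Nid2, a basement membrane linker, held 28.3, 65.3, 74.1 and 53.8 CPM in goWAT and 5.02, 6.48, 22.2 and 7.77 CPM in scWAT (log2 fold change 2.40 ± 0.44, adjusted p = 0.00469), and the small proteoglycan Ogn differed by 1.42 ± 0.25. Of 26 adipose progenitor markers, 2 were higher in each depot, against 6.25% of all genes tested in goWAT and 7.92% in scWAT. The scWAT count was 4 without goWAT replicate 1. The goWAT count was 1 without goWAT replicate 1, 3 or 4 or scWAT replicate 1 or 2, and 4 without scWAT replicate 3. The surface marker genes Thy1 (log2 fold change -2.27 ± 0.33, adjusted p = 0.000942) and Ly6a (log2 fold change -1.68 ± 0.25, adjusted p = 0.0011) were higher in scWAT and the matrix gene Vit higher in goWAT (log2 fold change 2.27 ± 0.53, adjusted p = 0.0138). Gpc3, a heparan sulphate proteoglycan gene on the X chromosome, held 24.0, 33.6, 32.9 and 31.0 CPM in goWAT and 7.55, 4.18, 4.97 and 5.17 CPM in scWAT (log2 fold change 2.47 ± 0.25, adjusted p = 5.2e-05).

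Several markers of Schwann cells, the glia of peripheral nerves, were higher in scWAT. Of 13 tested, 6 were higher in scWAT and 0 in goWAT, with a median of -1.49. Cdh19, a cadherin of Schwann cells and their precursors, held 0.164, 0.117, 0.0773 and 0.293 CPM in goWAT and 2.43, 3.52, 2.46 and 3.34 CPM in scWAT (log2 fold change -4.12 ± 0.55, adjusted p = 0.000578). These levels are low beside those of adipocyte genes, but every scWAT library lay above every goWAT library.

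Several endothelial markers were higher in goWAT, while few immune markers were called in either direction. Of all genes tested, 6.25% were higher in goWAT and 7.92% in scWAT, to be set beside each list here. Of 22 endothelial genes, 5 were higher in goWAT and 1, Erg (-1.30), in scWAT. The goWAT count was 3 without any one of goWAT replicates 2 and 4 and scWAT replicates 1, 2 and 4, and the scWAT count was 0 without any one of goWAT replicates 2, 3 and 4 and scWAT replicates 1 and 2. Plvap, which forms the diaphragms of endothelial pores, held 136, 77.9, 336 and 181 CPM in goWAT and 62.5, 34.0, 60.1 and 59.8 CPM in scWAT (log2 fold change 1.76 ± 0.36, adjusted p = 0.00729). Pecam1, Cdh5 and Kdr did not pass the test (0.59, -0.35 and 0.41). Of 26 macrophage genes, 0 were higher in goWAT and 2 in scWAT, and these 2, Gpnmb and Spp1, lost their calls without single libraries (adjusted p up to 0.108 for Gpnmb without goWAT replicate 2 and 0.0891 for Spp1 without goWAT replicate 4). The scWAT count was 0 to 1 without 6 of the 8 libraries in turn and 6 without scWAT replicate 2. Of 20 T and B lymphocyte genes, 1 was higher in goWAT, which became 2 without scWAT replicate 1. On the same list Gzma (-1.92), a granzyme of cytotoxic cells, and Trac (-1.34), of the T cell receptor, were higher in scWAT, though their values overlapped between depots, and the count was 0 without goWAT replicate 1, 2 or 4 and 1 without any one scWAT library. The goWAT gene, Ighm, the heavy chain of immunoglobulin M, held 199, 241, 68.4 and 221 CPM in goWAT and 49.4, 23.8, 21.3 and 23.7 CPM in scWAT (log2 fold change 2.63 ± 0.38, adjusted p = 0.00101). Of 29 interferon-stimulated genes, 3 were higher in scWAT and 0 in goWAT, with 1 call without goWAT replicate 4 or scWAT replicate 2 and 5 without scWAT replicate 3. In scWAT replicate 2 their mean level was 5.51 on the log2 CPM scale against 3.84 to 4.20 in the other 7 libraries.

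Markers of neighbouring tissue were checked because captured areas can include it. Of 21 epididymis genes in the tables, 3 passed the filter on low counts and 1 was higher in goWAT. That 1 gene was Sult1e1, the estrogen sulphotransferase gene, which held 36.4, 51.9, 61.2 and 30.0 CPM in goWAT and 3.33, 1.58, 1.11 and 7.57 CPM in scWAT (log2 fold change 3.72 ± 0.52, adjusted p = 0.0011). The mean of the 21 genes was -2.81 to -2.16 on the log2 CPM scale in goWAT and -3.59 to -3.10 in scWAT, and the part of epididymis in any difference was not tested. Of 20 skeletal muscle genes, 8 passed the filter on low counts and 0 were called in either direction. The filter removed genes high in scWAT replicate 1 only, such as Ckm at 60.6 CPM. The test therefore cannot address muscle in that library. All 10 red blood cell genes passed the filter on low counts, and 0 were called in either direction.

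Steroid receptors and steroid enzymes split evenly. Of 18 tested, 3 were higher in goWAT and 3 in scWAT, against 6.25% and 7.92% of all genes tested. The goWAT count was 1 without goWAT replicate 3 or scWAT replicate 2, and the scWAT count 1 without goWAT replicate 2 or 4 or scWAT replicate 4. Hsd11b1, which regenerates active glucocorticoid within the cell, held 321, 225, 254 and 287 CPM in goWAT and 757, 1039, 688 and 618 CPM in scWAT (log2 fold change -1.51 ± 0.22, adjusted p = 0.00101). The glucocorticoid receptor gene Nr3c1 (log2 fold change -0.13 ± 0.23, adjusted p = 0.733) and the estrogen receptor gene Esr1 (log2 fold change -0.39 ± 0.25, adjusted p = 0.3) did not pass the test, and both overlapped between the depots.

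Single genes outside these lists with large differences included Gpx8, a peroxidase of the endoplasmic reticulum, with 33.4, 30.4, 29.4 and 35.8 CPM in goWAT and 353, 503, 183 and 230.3 CPM in scWAT (log2 fold change -3.30 ± 0.30, adjusted p = 1.4e-05). Apoc3, an apolipoprotein gene, held 5.14, 6.15, 5.31 and 4.50 CPM in goWAT and 50.5, 48.7, 33.8 and 20.9 CPM in scWAT (log2 fold change -2.87 ± 0.29, adjusted p = 4.62e-05). Ctsk, the collagen-degrading protease cathepsin K, held 11.5, 11.6, 10.1 and 9.11 CPM in goWAT and 131, 36.6, 61.5 and 58.7 CPM in scWAT (log2 fold change -2.76 ± 0.33, adjusted p = 0.000199). All 3 were higher in every scWAT library than in every goWAT library. Vwa1, a matrix gene, held 27.9, 38.3, 44.9 and 69.5 CPM in goWAT and 9.29, 7.27, 7.52 and 6.35 CPM in scWAT (log2 fold change 2.57 ± 0.28, adjusted p = 9.48e-05), and Slc6a13, a transporter of GABA and taurine, held 49.9, 38.7, 28.8 and 27.7 CPM in goWAT and 6.34, 1.82, 11.1 and 6.30 CPM in scWAT (log2 fold change 2.49 ± 0.40, adjusted p = 0.00187). The ribosomal protein gene copy Rpl39l held 0.140, 0.0292, 0.129 and 0 CPM in goWAT and 17, 7.51, 18 and 10.1 CPM in scWAT (log2 fold change -7.40 ± 0.63, adjusted p = 7.83e-06), and reads could be shared with the parent gene Rpl39.

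The same depots were compared in the other conditions, which used other libraries. In placebo mice at 13 °C, 2426 of 17387 genes (14%) were called, and 817 of them were called in the same direction at 22 °C, which is 33% of the 22 °C calls and 33.7% of the 13 °C calls, while 19 were called in opposite directions. With corticosterone 97 of 17119 genes (0.567%) were called at 22 °C and 120 of 17429 (0.689%) at 13 °C. Of these, 67 and 75 were called in the same direction in placebo mice at 22 °C, or 69.1% and 62.5%. The biological coefficient of variation was 53.6% and 41.8% in the corticosterone comparisons at 22 °C and 13 °C, and 37.6% and 36.5% in the placebo comparisons. With each library left out in turn, which was added after the data were seen, the count with corticosterone ran from 64 (without goWAT replicate 2) to 134 (without scWAT replicate 1) at 22 °C. At 13 °C it ran from 40 (without scWAT replicate 3 or 4) to 255 (without goWAT replicate 1), and was 53 to 80 without goWAT replicates 2 to 5 or scWAT replicate 5.

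A set of 34 genes was called in all 4 conditions, 25 of them higher in goWAT and 9 higher in scWAT. It held Wt1, Tcf21, Upk3b, Upk1b, Msln, C6, Hoxc4, Col6a5, Gpc3 and Sult1e1 on the goWAT side, and Tbx15, Shox2, Lhx8, Mmp3, Rpl39l, Il1r2, Zfhx4, Itm2a and Ccdc3 on the scWAT side. For Wt1 the log2 fold change was 6.85 in placebo mice at 22 °C, 6.72 at 13 °C, 6.47 with corticosterone at 22 °C and 7.05 with corticosterone at 13 °C. For Shox2 the 4 values were -4.52, -5.17, -4.36 and -6.20.

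Other groups did not recur in all 4 conditions. For Mup10 the 4 values, in the same order, were -8.38, -6.50, -5.38 and -3.02, and the last did not pass the test. Of the Mup genes tested, 14 of 15 were higher in scWAT in placebo mice at 13 °C, 6 of 14 with corticosterone at 22 °C and 0 of 14 with corticosterone at 13 °C. As a share of the library total, the summed CPM of the 20 genes had medians of 459 in scWAT with placebo at 22 °C, 113 with placebo at 13 °C, 46.2 with corticosterone at 22 °C and 40.9 with corticosterone at 13 °C, against 1.45 to 2.28 in the 4 goWAT groups. The highest goWAT library, 46.7 CPM, was replicate 3 of corticosterone at 13 °C. The brown and beige list had medians of -3.44 and -2.86 in placebo mice at 22 °C and 13 °C, and 0.77 and -0.04 with corticosterone at 22 °C and 13 °C. Leaving out 1 goWAT library lowered each of the latter medians, which still stayed above those in placebo mice. At 22 °C the mean level of the list in goWAT replicate 1 was 4.14 on the log2 CPM scale, against 1.02 to 2.27 in the other 4 goWAT libraries and 2.07 to 2.80 in scWAT, and without it the median was -0.43. At 13 °C goWAT replicate 1 was at 4.40, against 0.71 to 1.70 in the other 4 goWAT libraries and 2.51 to 3.97 in scWAT, and without it the median was -1.65. Of the list, 2 of 23 genes at 22 °C and 1 of 24 at 13 °C were called, all higher in scWAT, with 5 at 13 °C without that library. Levels in scWAT also differed: at 22 °C the mean of 10 brown fat identity genes was 3.71 to 5.98 log2 CPM with placebo. With corticosterone at 22 °C this mean was 1.85 to 2.7 in scWAT. At 13 °C it was 5.12 to 6.74 with placebo and 2.63 to 4.41 with corticosterone in scWAT. Whether these values differ between conditions was not tested for the corticosterone groups.

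**Figure D4:**
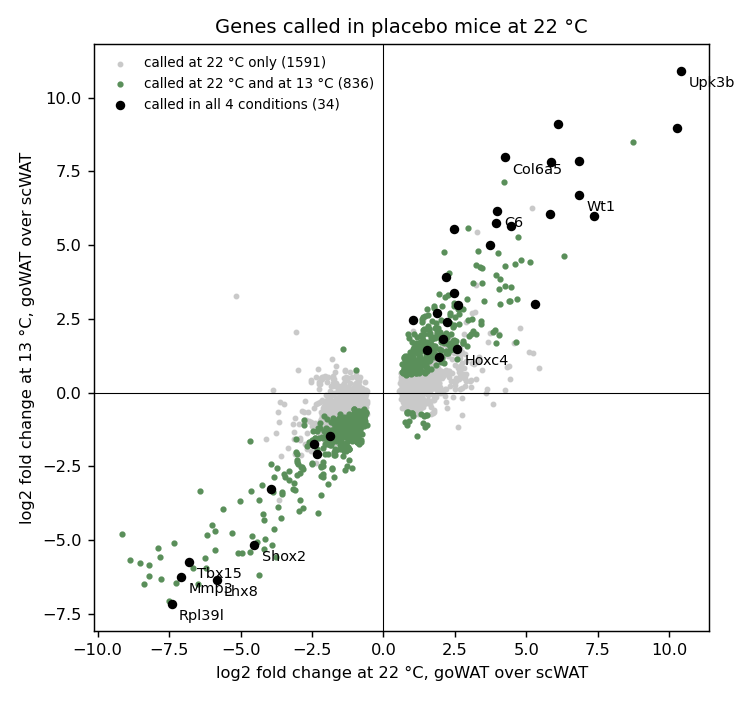
Log2 fold change of goWAT over scWAT in placebo mice at 13 °C (y axis) against that at 22 °C (x axis) for the 2427 genes called at 22 °C and tested at 13 °C, with genes called at both temperatures in green, those called at 22 °C but not at 13 °C in grey and the 34 called in all 4 conditions in black. Of the 2427 genes, 86.7% have the same sign at both temperatures, and Upk3b and Tbx15 lie far out in opposite corners.

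A term for the difference between the 2 temperatures was called for 49 of 19421 genes (0.252%), of which 4 had a higher and 45 a lower goWAT over scWAT ratio at 13 °C than at 22 °C. Rnf187, a ubiquitin ligase gene, held 414, 263, 455 and 516 CPM in goWAT and 143, 135, 165 and 136 CPM in scWAT at 22 °C, a log2 fold change of 1.51, which was -0.75 at 13 °C. The difference of the 2 was -2.29. Zdhhc7, a protein palmitoyltransferase gene, had values of 1.48 and -0.75 and a difference of -2.26. Plin1 was 1.03 at 22 °C and -0.81 at 13 °C, with a difference of -1.87 and an adjusted p of 0.00989 by edgeR's quasi-likelihood test. The count of 49 was 19 without goWAT replicate 4, 25 without scWAT replicate 1, 27 without scWAT replicate 4 and 95 without goWAT replicate 3.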

How the data were processed

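The deposited tables hold whole-number counts of reads per gene, which the authors made with GSNAP 2018-07-04 and featureCounts 1.6.3 on mm10, per the submitters' processing notes. The annotation release, strand setting and treatment of reads that fit several places were not given in the sources used here. The 2 depot tables, of 31933 genes each, were joined by Ensembl identifier, and names and positions come from GENCODE for GRCm38 (31894 matched). Genes passing filterByExpr were scaled by TMM and tested with edgeR 4.0.16 (robust quasi-likelihood, 8 libraries), adjusted by Benjamini and Hochberg, and called at an adjusted p under 0.05. CPM values use TMM library sizes. On simulated data with 17470 genes, 100 were changed 2-fold and 100 were changed 4-fold. Of these, 29% and 73% were recovered, with 5 false calls. Far fewer genes differed there than were called in the data, so recovery in the data may be different. The simulated spread followed gene abundance only, and no library was made to stand apart. The share of false calls in the data may therefore be higher. Alternatives were other scalings, tests (DESeq2 1.42.0, limma 3.58.1), filters, fits on more libraries, a replicate block and each library left out. Genes to name were the 12 largest calls in each direction that averaged 3 log2 CPM or more and did not overlap, up to 5 called and 3 uncalled members of each list in each direction, and a short list of depot genes. The members and lists were chosen with earlier results of these data known. Promoter sequences are from RefSeq (GRCm38.p6).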

Additional observations from a re-analysis of the deposited data

Results flagged for a closer look

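Single libraries lay far from the other 3 of their group, by a gap test that flags about 1 group in 20 by chance. Of 348 sets of 4 values tested, 25 passed its critical value, which is close to that share. In goWAT replicate 3, Isl1 held 2.78 CPM, Hoxc10 1.26, Saa3 967 and Zfhx4 4.79, the mean of the complement list was 6.02 and that of the steroid list 2.94 on the log2 CPM scale. In goWAT replicate 4, Adrb3 held 1884 CPM, Mmp3 1.36 and Sox17 168. En1 held 0.327 CPM and Slc2a5 12.6 CPM in goWAT replicate 1, and Il1r2 1.11 CPM in goWAT replicate 2.

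In scWAT replicate 1, Aldh1a2 held 0.475 CPM, Penk 12 and Ighm 49.4, and the skeletal muscle mean was 3.97 on the log2 CPM scale. In scWAT replicate 2, Tcf21 held 0.242 CPM and Plvap 34.0, and the progenitor mean was 3.57. In scWAT replicate 3, Msln held 0.307 CPM, Me1 1774 and Nid2 22.2. In scWAT replicate 4, Wt1 held 0.122 CPM, Upk3b 0.0407 and Ccdc3 142. Over the 4 scWAT libraries Wt1, Upk3b, Tcf21, Msln and Aldh1a2 held only 7, 1, 5, 11 and 10 counts. A few reads therefore decided the flags of these genes.

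The depot difference itself differed between 13 °C and 22 °C in 49 genes by edgeR's quasi-likelihood test. The difference of the log2 fold changes was 2.21 for Hacd4, 1.68 for Sh3d19, -2.66 for Inafm1, -2.29 for Rnf187, -2.26 for Zdhhc7 and -2.1 for Lsm4. Rnf187 and Zdhhc7 were called under all 16 alternatives, Hacd4 under 10 and Sh3d19 under 5.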

How the results depend on the processing

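Of 120 called genes among 134 named, 81 stayed called under every one of the 16 settings that tested them. The stricter filter tested 2083 of the 2475 calls and left out, among others, Wt1, Tcf21, Tbx15, Upk3b and Msln. No call changed sign in a setting that tested it. The count of 2475 was 1648 with a 2-fold minimum, 1396 with all 37 goWAT and scWAT libraries, 964 with all 55, and 1045 to 2745 with each library left out. The 1092 genes higher in goWAT became 1695 with DESeq2, 452 with 55 libraries and 507 to 1270 with each library left out. The 1383 higher in scWAT became 663 with 37 libraries, 512 with 55 and 538 to 1475 with each left out. The 49 genes that differed between temperatures became 430 with DESeq2, 179 with limma-voom, 81 with the stricter filter, 20 with 37 libraries, 3 with 55 and 19 to 95 with each left out. The 817 genes shared with 13 °C became 493 with 37 libraries, 360 with 55 and 534 to 845 with each left out. The 67 shared with corticosterone at 22 °C became 211 with DESeq2, 108 with limma-voom, 34 with the stricter filter, 189 with 37 libraries and 133 with 55, and the 75 at 13 °C became 347 with DESeq2 and 204 with limma-voom. The difference in mitochondrial share, -4.25 percentage points, ran from -4.98 to -3.71. The cause of these shifts was not tested.

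With the replicate number as a block, 2303 genes were called (83.4% of the 2475 kept) and 15 differed between temperatures. Same-numbered libraries correlated at 0.0635, 0.1047, -0.0154 and -0.0184 in their deviations from the group means. Libraries with different numbers correlated at -0.1091 to 0.0568. These values cannot tell whether same-numbered libraries share an animal, since the labels name no pair that does. Uncalled genes near 0 changed sign: with each library left out Hoxc8 ran from -0.1394 to 0.2094, Pparg from -0.1628 to 0.0478 and Nr3c1 from -0.2374 to 0.0757, and Hoxc8 was -0.0206 with the stricter filter. Lep, Krt18, Krt19, Kcnk3, Elovl6, Slc2a5 and Plvap lost their calls in the fits on 37 and 55 libraries, and Trf, Cyp2e1, Fads1, Chrdl1, Aldh1a1, Rspo1 and Hsd11b1 in the fit on 55. Depth limits genes with few counts, such as Wt1 and Upk3b in scWAT.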
